A study of Mus musculus with 4 samples.

Results

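The contractile genes described here are 10 genes of actin and myosin based contraction and of its transcriptional control: Myl9, Mylk, Acta2, Tagln, Cnn1, Cnn2, Tpm1, Tpm2, Smyd1 and Srf. They were taken as a list of symbols, and every probe set that the platform annotation gives to 1 of these symbols alone was used, which came to 26 of the 34945 probe sets with a single symbol. They stand for 10 of the 18193 genes named on the array. The list was drawn up with the co-culture ratios of these same arrays known, so those ratios are given as a description and without a test. Of the 26 probe sets, 18 lay above a signal of 76.1 (the median over every probe set and array, used here as the floor) in at least 1 array and 16 in all 4. Of the 10 genes, 9 were measured above the floor in all 4 arrays and Cnn1 in none.

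Signals are MAS5 intensities, a linear measure of how brightly a probe set hybridised, and they are compared between arrays and not between probe sets. The 4 arrays, 1 per group, held RNA of Kupffer cells, which are the macrophages that live in the liver, and of SL4 cells, labelled as a mouse colon carcinoma line. The groups were Clec4n-/- (Dectin-2 knockout) Kupffer cells in co-culture with SL4 cells, Clec4n-/- Kupffer cells kept apart from SL4 cells, wild-type Kupffer cells in co-culture with SL4 cells, and wild-type Kupffer cells kept apart from SL4 cells. The arrays of cells kept apart are called separate culture. Clec4n encodes Dectin-2, a receptor for fungal sugars, and only the Kupffer cells differed in genotype, since the SL4 cells were the same line throughout. All mice were 12-week-old C57BL/6 females, the Kupffer cells were sorted as CD45+ CD11b+ F4/80+, 100000 cells of each type were used, and the cells were lysed after 8 hours. A separate culture array holds RNA of both cell types, combined at a step that the sources used here do not give. Per the labels, SL4 cells have the C57BL/6 background too, and how many mice each array stands for is not given in the sources used here.

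In smooth muscle, calcium and calmodulin switch on myosin light chain kinase, encoded by Mylk, which phosphorylates the regulatory light chain encoded by Myl9 and so lets myosin pull on filaments of smooth muscle actin, encoded by Acta2. Transgelin, the calponins and the tropomyosins lie along those filaments and tune their grip. Serum response factor, encoded by Srf, binds CArG boxes in the promoters of many of these genes, and its cofactors of the myocardin family respond to the state of the actin cytoskeleton. The same genes are also used by myofibroblasts and, at lower levels, by many adherent cells, while Smyd1, a methyltransferase, belongs to heart and skeletal muscle.

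Promoter stretches are shown because several of these genes are known targets of serum response factor. Smyd1 and Myl9, with the lowest co-culture ratios, can be set beside Acta2, lower by less, and Srf, level at its bright probe set. RefSeq promoters of assembly GRCm38.p6 were given for 9 of the 10 genes, Tagln being the exception, and the 250 bases before each start were searched on both strands. Capitals mark matches to the CArG box, strict or with 1 other letter among its central bases, written 5′ to 3′ on the gene's strand.
Myl9 promoter, chr2:156775214-156775407, plus strand: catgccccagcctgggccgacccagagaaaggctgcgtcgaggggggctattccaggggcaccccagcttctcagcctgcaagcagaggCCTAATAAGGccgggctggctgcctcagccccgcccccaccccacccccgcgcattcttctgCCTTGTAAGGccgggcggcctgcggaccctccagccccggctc
Smyd1 promoter, chr6:71262282-71262531, minus strand: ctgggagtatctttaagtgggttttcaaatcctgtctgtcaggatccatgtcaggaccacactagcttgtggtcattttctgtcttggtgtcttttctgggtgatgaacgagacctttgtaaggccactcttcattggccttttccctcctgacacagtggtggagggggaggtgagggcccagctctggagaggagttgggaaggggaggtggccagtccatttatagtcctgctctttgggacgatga
Acta2, distal match, chr19:34255438-34255467, minus strand: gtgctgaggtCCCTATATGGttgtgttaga
Acta2, proximal match, chr19:34255388-34255417, minus strand: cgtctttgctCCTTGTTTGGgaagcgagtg
Srf, paired matches, chr17:46556215-46556244, minus strand: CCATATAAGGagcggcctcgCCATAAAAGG

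A strict CArG box lay in 3 of the 9 promoters, against 1.47% of all 32851 promoters of the same length. Myl9 held CCTAATAAGG, Cnn2 held CCTTATAAGG, and Srf held CCATATAAGG and CCATAAAAGG. With 1 other letter allowed, 4 of the 9 promoters matched, against 8.59% of all, and the addition was Acta2 with CCCTATATGG and CCTTGTTTGG. The letters CATTCC or their reverse complement GGAATG, the core bound by TEAD factors, lay in 3 of the 9, namely Mylk, Acta2 and Tpm1, against 12.6% of all promoters. Smyd1, Cnn1 and Tpm2 held none of these motifs in this window.

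The labels of the cells and of the gene group were checked against marker genes first. Clec4n lay under the floor in all 4 arrays, at 8.19 and 8.29 in knockout co-culture and separate culture and 17.6 and 14.2 in wild-type co-culture and separate culture at its brighter probe set, so its level gives no firm check of the genotype labels. Of 16 epithelial and colon carcinoma markers, 13 were at or under the floor in all 4 arrays, among them Cdh1, Krt8, Krt18, Krt19 and Cdx2, and only Spint1 was above it in all 4, so these markers do not bear out the colon carcinoma label of the SL4 cells. Of 11 Kupffer cell markers, Cd5l and Id3 were above the floor in all 4 arrays. At or under it in all 4 were 7, including Clec4f, Vsig4 and Timd4. The genes of the sort, Ptprc (CD45) at 13.8 to 36.4, Itgam (CD11b) at 0.456 to 24.3 and Adgre1 (F4/80) at 16.8 to 35.8, were under the floor in all 4 arrays too. Of the 19 pan-macrophage and leukocyte markers, which include these genes, 8 were above the floor in all 4 arrays and 10 at or under it in all 4. The brightest were Cd53 at 615 to 793 and Laptm5 at 350 to 502. Which cells gave the signals of the contractile genes cannot be told from these arrays. Of the 21 other smooth muscle type genes, 15 were above the floor in all 4 arrays and 17 in at least 1, such as Cald1 (caldesmon) at 6835 to 7344 and Smtn (smoothelin) at 398 to 625. Among genes that mark mature smooth muscle, Myocd, Lmod1, Actg2 and Cnn1 were at or under the floor in all 4 arrays, and Myh11, the smooth muscle myosin, read 75.7 to 107 and was above it in 3. Of 30 striated muscle genes, 19 were above the floor in all 4 arrays, such as the muscle regulator Myf5 at 2354 to 3763, embryonic myosin Myh3 at 3442 to 3862 and cardiac troponin Tnnt2 at 3323 to 4193. Since genes of both muscle types were measured and Myocd, Lmod1, Actg2 and Cnn1 were not, the 10 genes are called contractile genes here.

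**Figure D1:**
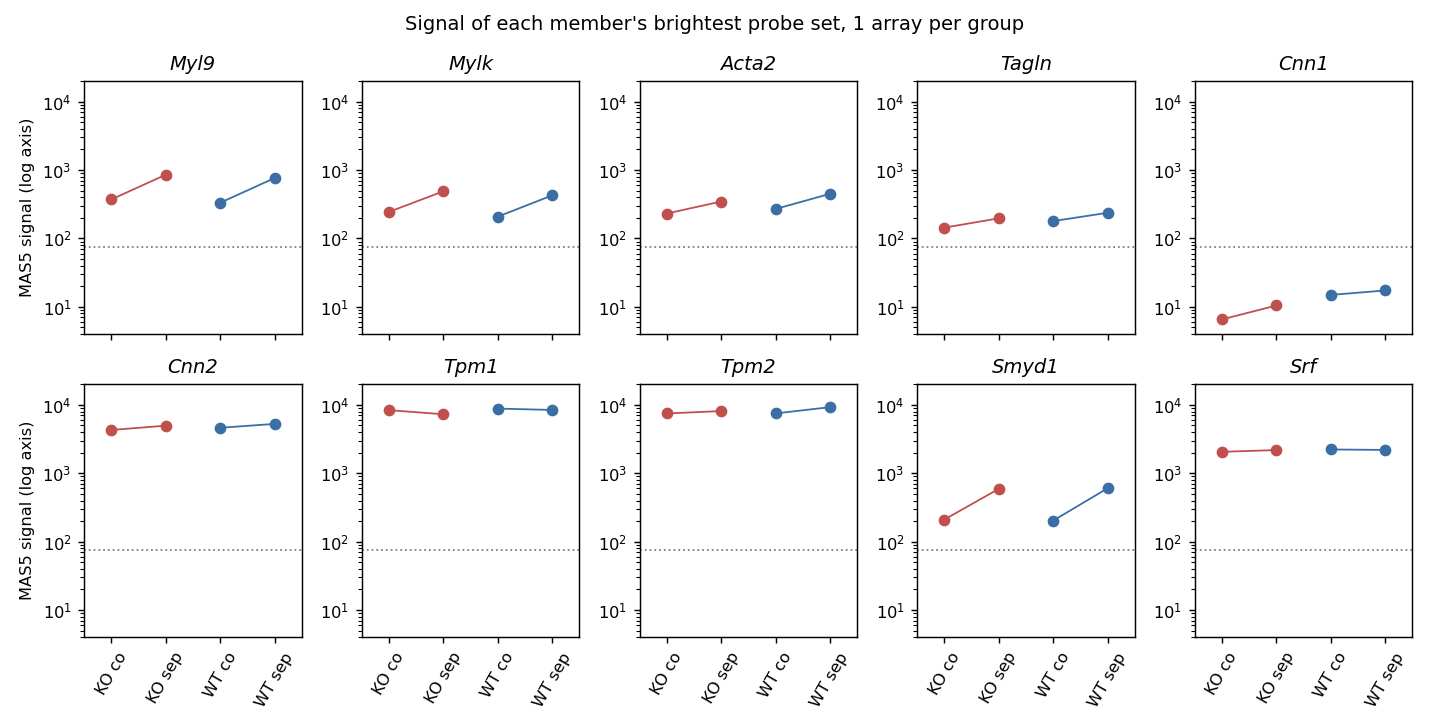
MAS5 signal (log axis) of the brightest probe set of each of the 10 contractile genes in Dectin-2 knockout (red) and wild-type (blue) arrays, co-culture (co) left of separate culture (sep); each point is 1 array, lines join the arrays of a genotype and the dotted line is the floor of 76.1. Myl9, Mylk, Acta2, Tagln and Smyd1 lie lower in co-culture in both genotypes, Tpm1 and Srf are nearly level, and Cnn1 is under the floor in every array.

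Smyd1 had the lowest co-culture ratio of the 9 genes measured, followed by Myl9 and Mylk, and these 3 genes were at least 2-fold lower in co-culture in both genotypes at their brightest probe set, Mylk only narrowly. Acta2 and Tagln were lower by less, Cnn2 and Tpm2 by little, and Tpm1 and Srf were close to level. Of the 9 genes measured, 3 were at least 2-fold lower in co-culture with knockout Kupffer cells, where 0.574% of all 10444 genes were, and 3 with wild-type Kupffer cells, where 0.538% of 10417 were. At 1.5-fold the counts were 3 in knockout, with 4.28% of all genes, and 4 in wild type, with 3.39%. None of the 9 was 1.5-fold higher, against 2.5% of all genes in knockout and 3.31% in wild type, or 2-fold higher, against 0.67% and 0.701%. Of the 18 probe sets measured, 4 were 1.5-fold lower and 0 higher in knockout, where 4.44% and 2.9% of 20235 probe sets were, and 6 were lower and 1 higher in wild type, where 3.32% and 3.99% of 20169 were. The median log2 ratio of the 9 was -0.45 in knockout and -0.40 in wild type, and that of all genes was -0.02 in each. Since the list was chosen on these ratios, nothing is read from the counts, and with 1 array per group no difference has a replicate check.

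The signal of Myl9, the regulatory light chain, was 372 in knockout co-culture against 854 in knockout separate culture, and 332 in wild-type co-culture against 764 in wild-type separate culture. Both co-culture arrays were below both separate arrays, and the ratio was 2.30-fold lower in knockout and 2.30-fold lower in wild type. Counted from the lowest ratio, Myl9 ranked 27 in knockout and 31 in wild type. In these mixed RNAs, fewer cells of a type and less RNA per cell cannot be told apart.

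Mylk, the kinase of that light chain, read 245 in knockout co-culture against 489 in separate culture, and 208 in wild-type co-culture against 427 in separate culture. It was 2.001-fold lower in knockout, at the edge of the 2-fold count, and 2.05-fold lower in wild type. It did not reach 2-fold in knockout with quantile normalization, at a log2 ratio of -0.95, or in either genotype with the median over its probe sets, at -0.62 in knockout and -0.95 in wild type. A second probe set, 1425504_at, lay under the floor in both co-culture arrays, at 71.6 in knockout and 66.6 in wild type, against 89.9 and 138 in the separate arrays, so its ratio is a bound of at least 1.18-fold lower in knockout and at least 1.81-fold lower in wild type. Another, 1425505_at, was under the floor throughout.

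Acta2, smooth muscle actin, read 231 in knockout co-culture against 346 in separate culture, and 269 in wild-type co-culture against 448 in separate culture. The co-culture arrays were again the lower ones, by 1.497-fold in knockout, just under the limit of 1.5, and by 1.66-fold in wild type. The name of its bright probe set, 1416454_s_at, carries the suffix for probes that match several transcripts, so RNA of other actins could add to the signal. Its other 2 probe sets were under the floor in all 4 arrays.

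Tagln, which encodes transgelin, an actin cross-linker, read 144 in knockout co-culture against 197 in separate culture, and 179 in wild-type co-culture against 237 in separate culture. The difference was 1.37-fold in knockout and 1.32-fold in wild type. Cnn1, the calponin of mature smooth muscle, was under the floor throughout, at 6.54 in knockout co-culture against 10.5 in separate culture and 14.9 in wild-type co-culture against 17.3 in separate culture, so no fold is given. Cnn2, the calponin of many non-muscle cells and of macrophages, was well above the floor at 4298 in knockout co-culture against 4970.1 in separate culture, and 4628 in wild-type co-culture against 5275 in separate culture. Its log2 ratio was -0.21 in knockout and -0.19 in wild type.

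The tropomyosins, which lie in the groove of the actin filament, were close to level at their bright probe sets. Tpm1 read 8383 in knockout co-culture against 7294 in separate culture, and 8829.95 in wild-type co-culture against 8438 in separate culture. The log2 ratio was 0.20 in knockout and 0.07 in wild type, where it was -0.05 with each array scaled to a common median. In knockout it ran from 0.09 to 0.20 with the processing varied. The probe sets of Tpm1 disagreed: 1423721_at was level, with log2 ratios of 0.07 in knockout and -0.05 in wild type, and the dimmer 1456623_at read 349 against 296 in knockout and 413 against 275 in wild type, log2 ratios of 0.24 and 0.59. Tpm2 read 7492 in knockout co-culture against 8127 in separate culture, and 7505 in wild-type co-culture against 9265 in separate culture. Of its 4 probe sets, the 3 bright ones had log2 ratios from -0.20 to -0.12 in knockout and from -0.33 to -0.19 in wild type, whereas 1419739_at was at -0.58 in knockout and -0.54 in wild type.

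Smyd1 read 211 in knockout co-culture against 592 in separate culture, and 203 in wild-type co-culture against 604 in separate culture. The co-culture arrays lay close together and far below the separate ones, 2.81-fold in knockout and 2.97-fold in wild type, which put Smyd1 at rank 9 from the lowest ratio in each genotype. A second probe set, 1421329_a_at, was 2.06-fold lower in knockout, at 161 against 333, and 2.27-fold lower in wild type, at 145 against 329. Another, 1441667_s_at, was above the floor only in the separate arrays and gave bounds of at least 1.34-fold lower in knockout and at least 1.22-fold lower in wild type. The remaining 3 were under the floor in all 4 arrays.

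Srf was level at its bright probe set, with 2061 in knockout co-culture against 2186 in separate culture, and 2230.2 in wild-type co-culture against 2196 in separate culture. Its dimmer probe set, 1418256_at, pointed up in both genotypes, at 324 against 262 in knockout and 423 against 311 in wild type, log2 ratios of 0.31 and 0.45. The log2 ratio of the bright probe set was -0.09 in knockout and 0.02 in wild type, where it was -0.09 with a common median, and the median over both probe sets was 0.11 in knockout and 0.23 in wild type. The direction of Srf therefore depended on the probe set and the scaling. The name of its bright probe set, 1418255_s_at, carries the same suffix as that of Acta2, so other RNAs could add to the signal.

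**Figure D2:**
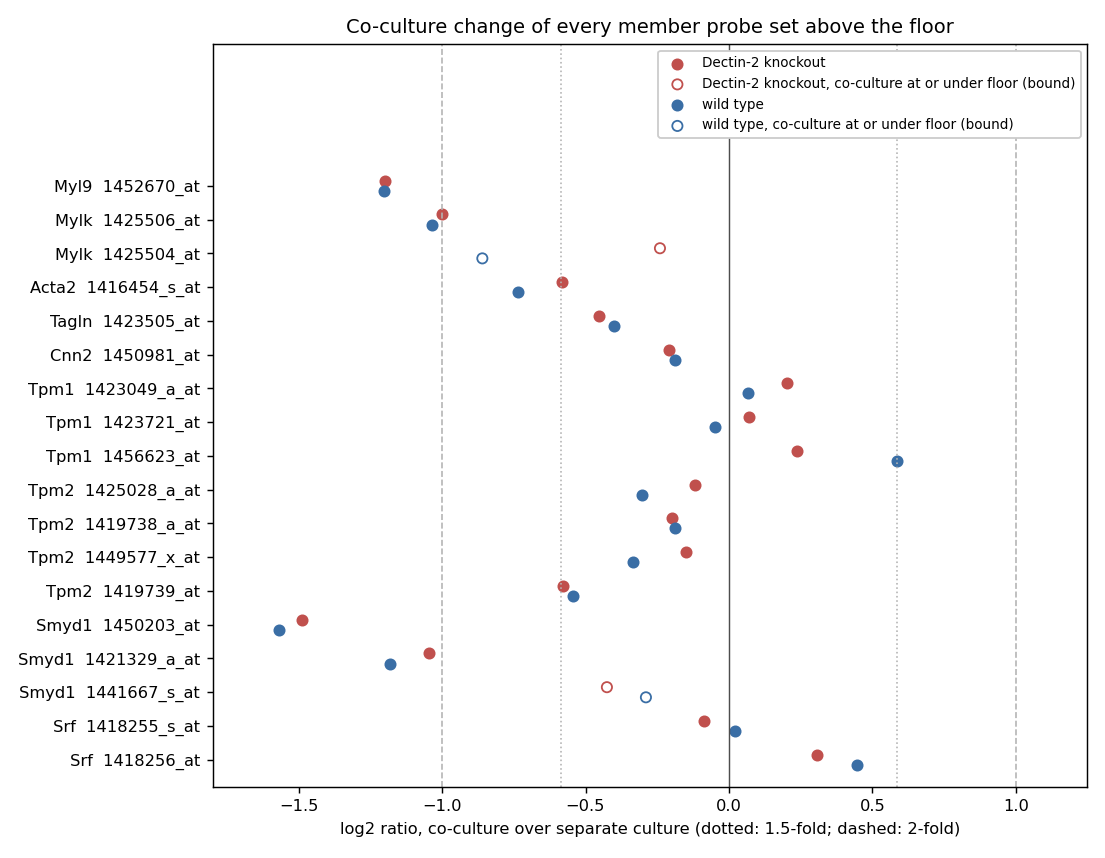
Log2 ratio of co-culture over separate culture for the 18 probe sets of the contractile genes that were above the floor in at least 1 array, in knockout (red) and wild type (blue); open circles are bounds where the co-culture array was at or under the floor. The bright probe sets of Myl9, Mylk and Smyd1 lie at or beyond the 2-fold line in both genotypes, while Tpm1 and Srf lie on both sides of 0.

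For scale, the knockout over wild-type log2 ratio of the 500 genes nearest in signal to Smyd1 had a central 95% range from -0.46 to 0.49 in co-culture and from -0.48 to 0.55 in separate culture. Around Tagln the range was -0.66 to 0.67 in co-culture and -0.63 to 0.79 in separate culture. Around Acta2 it was -0.51 to 0.45 in co-culture and -0.48 to 0.60 in separate culture. Around Cnn2 it was -0.18 to 0.21 in co-culture and -0.28 to 0.21 in separate culture. These ranges hold genotype differences as well as array error and are not a test.

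The genotype of the Kupffer cells was not used to choose the genes. Knockout over wild type, the 9 measured genes differed by little: none was 1.5-fold lower or higher in co-culture, where 1.48% and 1.51% of 10399 genes were, and none in separate culture, where 1.05% and 1.74% of 10362 were. Acta2 and Tagln had the lower signal in knockout in both cultures. The log2 ratio of Acta2 was -0.22 in co-culture and -0.37 in separate culture, and that of Tagln was -0.32 in co-culture and -0.27 in separate culture. Myl9 and Mylk had the higher signal in knockout, with log2 ratios of 0.16 in both cultures for Myl9 and of 0.23 in co-culture and 0.20 in separate culture for Mylk, though the median over the probe sets of Mylk was -0.21 in separate culture. The median over the 9 genes was -0.07 in co-culture and -0.09 in separate culture, against -0.00212 for all genes in co-culture and 0.00452 in separate culture. Of 18 genes of non-muscle actin and myosin, such as Actb and Myh9, 10 were below 0 in co-culture and 13 in separate culture. Of all genes, 50.5% and 48.9% were. The medians of the 18 were -0.02 in co-culture and -0.12 in separate culture, and this was not tested.

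Genotype was tested in a limma fit across 10637 genes with culture as a block, which assumes the same genotype difference in both cultures and leaves 1 residual degree of freedom. The arrays of a genotype are different culture conditions and not replicates of one. That 1 degree of freedom is the difference between the co-culture ratios of the genotypes, and the contractile genes were chosen on both ratios. Their standard errors, intervals and p-values are therefore not free of that choice, and the intervals are given as a description. No gene passed an adjusted p of 0.05, 0% of those tested, and 739 had an unadjusted p under 0.05. For the 9 contractile genes the limma adjusted p lay between 0.697 and 0.986. Acta2 was at -0.30 ± 0.10 (log2, SE) with a 95% interval from -0.56 to -0.03, and Tagln at -0.29 ± 0.09 with an interval from -0.54 to -0.05, both with a limma adjusted p of 0.697. For Myl9 the interval ran from -0.08 to 0.41, for Mylk from -0.03 to 0.46 and for Smyd1 from -0.24 to 0.26. The intervals are not adjusted for the number of genes, and with an intensity trend in the limma fit they ran from -0.68 to 0.09 for Acta2 and from -0.70 to 0.12 for Tagln, across 0.

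**Figure D3:**
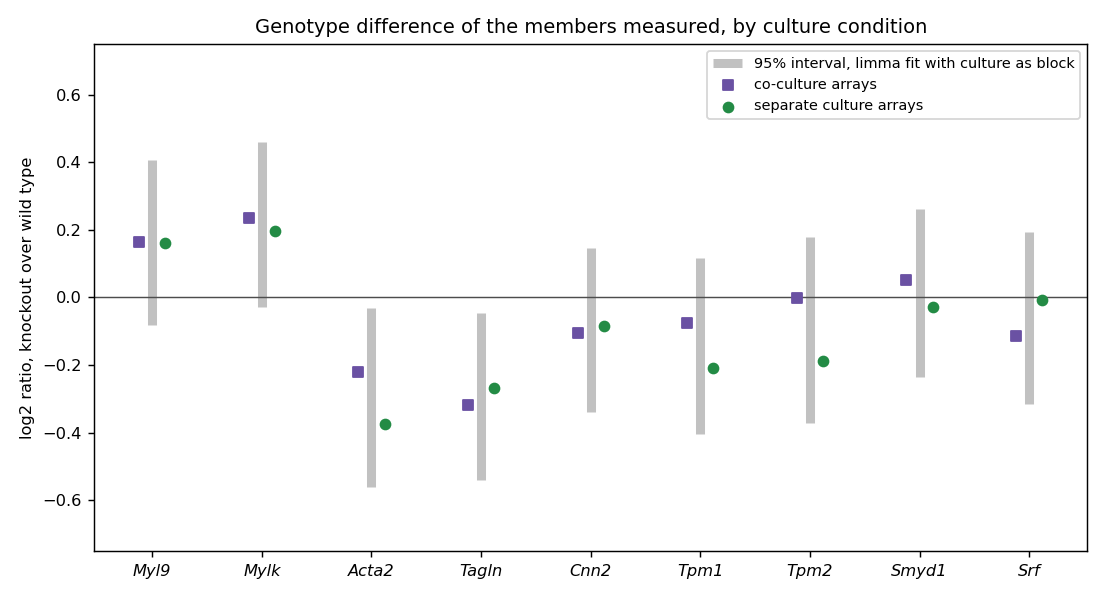
Log2 ratio of knockout over wild type for the 9 contractile genes measured, in co-culture arrays (squares) and separate culture arrays (circles), with the 95% interval of the limma fit with culture as a block (grey bars). Acta2 and Tagln lie below 0 in both cultures and Myl9 and Mylk above it, and no gene passed the adjusted threshold.

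The co-culture ratios of the genotypes share no array, but the genes were chosen on both, so their closeness is a description and nothing is read from it. The difference between them, knockout minus wild type, ran from -0.11 for Srf to 0.19 for Tpm2 on the log2 scale. With the processing varied, the value of Srf ran from -0.12 to -0.03 and that of Tpm2 from 0.03 to 0.27. The difference was 0.003 for Myl9, 0.04 for Mylk and 0.08 for Smyd1. None of the 9 genes differed 1.5-fold, where 4.32% of 10637 genes had the lower and 2.6% the higher ratio in knockout. The 4 arrays leave no degree of freedom to test this difference.

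Among related genes, Mylk4, a kinase of the same family as Mylk, was also lower in co-culture, at 487 against 1251 in knockout and 500.3 against 1204 in wild type, 2.57-fold and 2.41-fold. Des, which encodes the muscle intermediate filament desmin, read 1086 against 1778 in knockout and 1173 against 2235 in wild type, 1.64-fold and 1.91-fold lower. Smyd4, a relative of Smyd1, was 1.84-fold lower in knockout and 1.64-fold in wild type. Mylpf, a light chain of fast skeletal muscle, was 1.58-fold lower in knockout and 1.54-fold in wild type. These 4 were the genes of the related lists above the floor in all 4 arrays that were 1.5-fold apart in the same direction in both genotypes. The share of all genes that were so in both genotypes was not counted, so nothing is read from this number.

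The medians of the related lists lay nearer to 0, and the share of all genes 1.5-fold lower was 4.28% in knockout and 3.39% in wild type. Of 17 other smooth muscle type genes measured, 2 were 1.5-fold lower and 0 higher in knockout, and 2 lower and 2 higher in wild type, with medians of -0.14 and 0.04. The genes were Des and Synpo2 in knockout, and Des, Actc1, Smtn and Filip1l in wild type. Smtn, which encodes smoothelin, had the higher signal in co-culture, 622 against 415 in knockout and 625 against 398 in wild type. Of 18 non-muscle actomyosin genes, which include Actb, Myh9 and Vcl, 0 were 1.5-fold apart in either genotype, and their medians were -0.01 in knockout and -0.09 in wild type. Of the striated muscle genes, 4 of 20 were 1.5-fold lower and 0 higher in knockout, and 3 of 19 lower and 0 higher in wild type, with medians of -0.20 and -0.15. The genes were Mylpf in both, Myh1, Myl1 and Tnni1 in knockout, and Tnnt3 and Tnni2 in wild type. The early targets of serum response factor had medians of 0.07 in knockout and 0.16 in wild type over 10 genes, with 0 lower in knockout and 1, Fosb, lower in wild type. The ratio of Fosb is a bound, since it read 75.1 in wild-type co-culture, under the floor, against 134 in separate culture. Of the 4 SMYD genes other than Smyd1, 1 was lower in each genotype, Smyd4, with medians of -0.04 in knockout and -0.26 in wild type. Des, Smyd4 and Mylpf were named because their values passed 1.5-fold in both genotypes, and the other genes of this paragraph after their values were seen.

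Of the cofactors of serum response factor, Mrtfa, which actin holds in the cytoplasm, had log2 ratios of 0.09 in knockout and 0.32 in wild type. Mrtfb was at -0.23 in knockout and 0.05 in wild type, where it was -0.06 with a common median. The ternary complex factors Elk1, Elk3 and Elk4 lay between -0.30 and -0.05 in knockout and between -0.13 and -0.01 in wild type. Mef2c, a muscle transcription factor, was at -0.53 in both genotypes, with 313 against 451 in knockout and 281 against 407 in wild type. Its relatives Mef2a and Mef2d were at -0.05 and -0.04 in knockout and 0.20 and -0.04 in wild type. Scai, an inhibitor of the myocardin-related factors, was at 0.14 in knockout and 0.02 in wild type, and at -0.20 in knockout with the median over probe sets and -0.09 in wild type with a common median. Myocd, Abra, Mef2b and Fhl5 were under the floor in all 4 arrays. Over the 10 cofactors and partners measured the median was -0.08 in knockout and 0.00 in wild type.

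**Figure D4:**
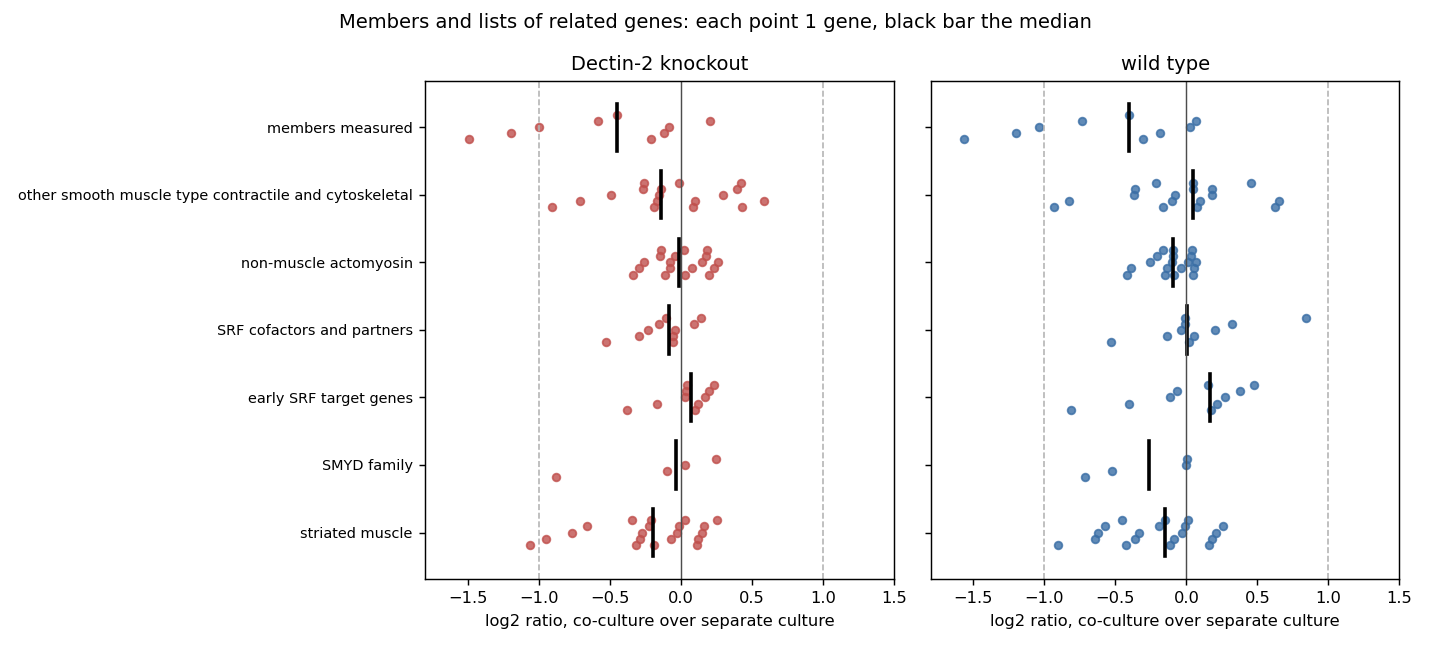
Log2 ratio of co-culture over separate culture in knockout (left, red) and wild type (right, blue) for the contractile genes measured and for 6 lists of related genes; each point is 1 gene, black bars are medians and dashed lines mark 2-fold. The contractile genes, with medians of -0.45 and -0.40, were chosen on these ratios, and the lists of related genes have medians between -0.26 and 0.16.

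Some markers of other cell types had lower signals in co-culture beside the contractile genes, and some had higher ones. The summed signal of the 19 stellate cell, pericyte and fibroblast markers was 7462 in knockout co-culture against 9340.1 in separate culture, and 7552 in wild-type co-culture against 9563 in separate culture. The sums in this paragraph are carried by their brightest genes, so nothing is read from them for a list as a group. The median signal of the 19 was 56.0 against 49.4 in knockout and 38.7 against 43.1 in wild type, all under the floor. Of the 19, 10 were above the floor in at least 1 array, with Des, Reln and Col3a1 the brightest, and defining genes such as Lrat, Hand2, Dcn and Col1a1 were at or under it in all 4. Of the 9 measured in each genotype, 7 were below 0 in knockout and 6 in wild type, with medians of -0.38 and -0.13. Of all genes, 53.0% were below 0 in knockout and 53.3% in wild type. Among the 9, Cspg4 in both genotypes, Hgf in wild type and Thy1 in knockout were bounds, with an array under the floor. Col3a1, a collagen, read 2257 against 3151 in knockout and 2191 against 3206 in wild type. Des, also one of the related genes above, read 1086 against 1778 in knockout and 1173 against 2235 in wild type. Rgs5, a pericyte marker, had the higher signal in co-culture, 848 against 599 in knockout and 954 against 570.4 in wild type. The 19 pan-macrophage and leukocyte markers summed to 2253 in knockout co-culture against 2271 in separate culture, and to 2353 in wild-type co-culture against 1888 in separate culture, and 10 of them were at or under the floor in all 4 arrays. Above the floor in at least 1 array were 1 of 10 endothelial and 4 of 7 hepatocyte markers. All 4 of these hepatocyte markers had a log2 ratio below 0 in both genotypes, where 53.0% of all genes in knockout and 53.3% in wild type did. Their medians were -0.29 in knockout and -0.34 in wild type. Alb was level, at -0.04 in knockout and -0.01 in wild type. Apoa1 at 78.6 to 142 and Ttr at 83.0 to 156 lay near the floor, and Mup3 was under it in knockout co-culture, at 73.8. The 7 hepatocyte markers summed to 721 in knockout co-culture against 855 in separate culture, and to 783 in wild-type co-culture against 950.5 in separate culture. The part of these cell types in the co-culture ratios was not tested.

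The genes outside the list with the signal pattern most like the mean of the 9 over the 4 arrays were Nfia, at a distance of 0.03 in centred log2 signal, Mdfic at 0.07, and Peg3, Sdf2l1 and Arhgap22 at 0.08 each. They were the nearest of 7241 genes above 4 times the floor in all arrays. Nfia, a nuclear factor I transcription factor, had log2 ratios of -0.54 in knockout and -0.57 in wild type.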

How the data were processed

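Expression was measured on 1-colour Affymetrix arrays, 1 array per group, from 20 ng of total RNA amplified and labelled with biotin, per the labels' protocols. What the authors deposited is 1 linear intensity for each probe set, produced with Affymetrix Expression Console 1.4 and MAS5, per the submitters' processing notes. The 4 arrays had been brought to one level: without the top and bottom 2% of values their means were 497 to 498, while the median signal ran from 72.5 to 78.4. Detection calls were not used here. Precision is limited by having 1 array in each group.

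Of 45037 probe sets, the platform annotation gave 34945 a single symbol and 932 several, and 9160 were not listed in it. Symbols were looked up by Entrez number in RefSeq, which held 34741 of them. A gene's value was its probe set of highest mean log2 signal. Signals were raised to the median of all values, 76.1, and log2-transformed. A ratio was given where at least 1 of its arrays was above that floor, and as a bound where the dimmer one was not. Ratios were counted at 1.5-fold and 2-fold. Genotype was fitted with limma 3.58.1 in R 4.3.3, with culture as a block and Benjamini-Hochberg adjustment, and the fit was checked on simulated data. Figures and tables used Python 3.11.15. The contractile genes and all lists were chosen with earlier results of these data known. Of 213 list entries, 6 matched no gene, and 1 list is not reported here. Named genes were all 10 contractile genes, the cofactors of Srf, the genes of related lists that were 1.5-fold apart the same way in both genotypes (at most 4 per list), the brightest and the defining marker genes, and the 5 genes of most similar pattern. Alternatives were no floor, quantile normalization, a common median, the median over probe sets, a filter at 4 times the floor and, for limma, an intensity trend.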

Additional observations from a re-analysis of the deposited data

Results flagged for a closer look

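Several co-culture log2 ratios had opposite signs in the genotypes, some of them close to 0 on each side. The share of all genes with opposite signs was not counted. In each case the difference, given as the knockout minus the wild-type log2 ratio, was not tested. Among the contractile genes this was 0.12 for the Tpm1 probe set 1423721_at, at 0.07 in knockout and -0.05 in wild type. For the bright probe set of Srf, 1418255_s_at, it was -0.11, at -0.09 in knockout and 0.02 in wild type. Among the related lists it was -0.18 for the median of the other smooth muscle type genes. For that of the cofactors and partners of Srf it was -0.0842, at -0.08 in knockout and 0.00 in wild type. Srf and Mrtfb in wild type changed sign with a common median. Among the cofactors it was -0.28 for Mrtfb, -0.26 for Mef2a and -0.95 for Gata6. Gata6 read 94.3 in knockout co-culture against 102 in separate culture, and 136 in wild-type co-culture against 27.3 in separate culture, which is under the floor, so its difference rests on 1 array.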

How the results depend on the processing

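Of the counts, medians and test summaries for the contractile genes under the alternatives, 127 stayed within 1.5 times of the value given (medians within 1.5-fold) and 1 did not: with an intensity trend limma called 3 genes, Aagab, Dnpep and Myf5, at adjusted p, against 0 without it, none of them a contractile gene. The number of contractile genes 2-fold lower was 2 in knockout with quantile normalization and 2 in each genotype with the median over probe sets, Mylk being the gene lost each time, and the number 1.5-fold lower in knockout was 4 with a common median. Of the values for single genes, 572 moved by less than 1.5-fold and 3 by more, all for Gata6 without a floor, and none past 1.5-fold changed sign. With a common median the median of all genes in wild type was -0.13 in place of -0.02, and 591 genes were 1.5-fold lower and 224 higher in co-culture in place of 353 and 345, and 93 and 59 were 2-fold lower and higher in place of 56 and 73. In separate culture, 154 genes were 1.5-fold lower and 121 higher in knockout with a common median and 138 and 122 with quantile normalization, in place of 109 and 180. Without a floor 111 genes were 2-fold lower in knockout co-culture and 103 in wild-type co-culture, in place of 60 and 56. The cause of these shifts was not tested. No paired analysis was possible because the labels give no replicate numbers and each group had 1 array. The limma fit pairs the genotypes by culture condition, not by replicate, and leaving out an array left no degree of freedom in the limma fit. Genes whose brighter array lies under 2 times the floor cannot reach 2-fold.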

Other observations

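Myf5, a regulator of the skeletal muscle lineage, had the higher signal with knockout Kupffer cells in both cultures, at 3763 in knockout against 2631 in wild-type co-culture and 3457 in knockout against 2354 in wild-type separate culture. The log2 difference in the limma fit was 0.54 ± 0.09 (SE), with an adjusted p of 0.697, and of 0.0126 with an intensity trend, and it was chosen after its values were seen. Mylk2, the myosin light chain kinase of skeletal muscle, was above the floor only in knockout co-culture, at 184, against 72.1 in knockout separate culture, 56.6 in wild-type co-culture and 51.3 in wild-type separate culture. Myog, another muscle regulator, read 518 in co-culture against 434 in separate culture in knockout, and 512 against 452 in wild type, while Myod1 read 326 against 372 in knockout and 338 against 367 in wild type.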
